A study of Mus musculus with 8 samples.

Results

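Chemokines and their receptors were followed in mouse dorsal root ganglia before an injection of carrageenan into the hind paw and at 1, 3 and 30 days after it. The members were all genes of the count table named as a CC, CXC, C or CX3C chemokine, as a receptor of one of these families, or as an atypical chemokine receptor, with at least 10 counts summed over the 8 libraries. Of 24421 genes in the table, 63 matched these names, 9 of them held under 10 counts, and 54 were kept. They comprise 21 CC ligands, 11 CXC ligands, 2 ligands of the C and CX3C families (Xcl1 and Cx3cl1), 15 signalling receptors and 5 atypical receptors. The filter on low counts left 47 of the 54 among the 17328 genes tested. The 7 untested members, Ccl26, Ccr4, Cxcl1, Cxcl2, Cxcl3, Cxcl13 and Xcl1, held 10 to 24 counts in all.

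Chemokines are small secreted proteins that bind G protein-coupled receptors and draw receptor-bearing leukocytes along a gradient, each receptor being carried by characteristic sets of cells. Atypical receptors bind chemokines without the usual G protein signal and take them up or carry them across a cell. In sensory ganglia the best known pair is fractalkine, Cx3cl1, a membrane-tethered chemokine made largely by neurons, and Cx3cr1, its receptor on resident macrophages.

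All animals were C57BL/6J mice, wild type by the library titles, male by the study's methods and 8 weeks old by the series record. The methods give an age range that starts there and reaches higher. At 0d they were naive and untreated, and the 1d, 3d and 30d groups had received 20 µl of 1% carrageenan, a seaweed polysaccharide that inflames tissue, in the left hind paw. Each time point had 2 libraries, each made from the pooled lumbar (L3 to L5) ganglia of 2 to 3 mice, so that replicates are separate pools. Because no group received a vehicle injection, the effects of carrageenan, of the injection itself and of elapsed time cannot be told apart in comparisons with 0d.

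The libraries held 44123208 to 73580338 counts, of which 12142 to 20400 fell on the 54 members. Although the record names the cells as DRG neurons, whole ganglia were extracted. The 10 sensory neuron markers summed to 12138 to 13196 CPM (counts scaled to a common library size with TMM factors) per library, but Schwann cell, satellite glia, fibroblast, macrophage and endothelial markers were also present, at 5726 to 11169, 2619 to 3136, 1110 to 1615, 158 to 197 and 107 to 129 CPM. The 30d libraries differed most from each other, where the chi-square of their counts over its degrees of freedom was 25.0 against 7.10 for the 3d pair, and among their marker sums red blood cell genes were at 515 and 276 CPM, neutrophil genes at 209 and 94.6 CPM and skeletal muscle genes at 99.7 and 14.2 CPM in replicates 1 and 2. The 0d libraries, the baseline of 3 comparisons, also differed in these sums, with red blood cell genes at 141 and 282 CPM, neutrophil genes at 45.5 and 91.1 CPM and skeletal muscle genes at 120 and 64.3 CPM. Skeletal muscle genes were at 25.2 and 56.8 CPM in the 1d pair.

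Most members were weakly expressed. Per kilobase of exon, only Ackr1, Cxcr4, Cxcl12 and Ccl11 lay above 6.10 CPM per kb, the median of all tested genes, on the mean of the 8 libraries. Ackr1 (Duffy antigen), an atypical receptor of many inflammatory chemokines, stood at 102 CPM per kb, followed by Cxcr4 at 9.22, its ligand Cxcl12 at 8.02 and the eosinophil attractant Ccl11 at 8.01. Ackr1 alone supplied 38.0% to 43.7% of the members' summed CPM in each library, and Ackr1 with Cxcl12 59.5% to 63.0%. Fewer than 100 counts in all were held by 15 members, at least 1000 by 16, and 13 members had no count in at least 1 library. The standard error of a log2 fold change had a median of 0.47 over the tested members at 3d against 0.11 over all tested genes. It was 0.16 over the 16 members with at least 1000 counts.

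**Figure D1:**
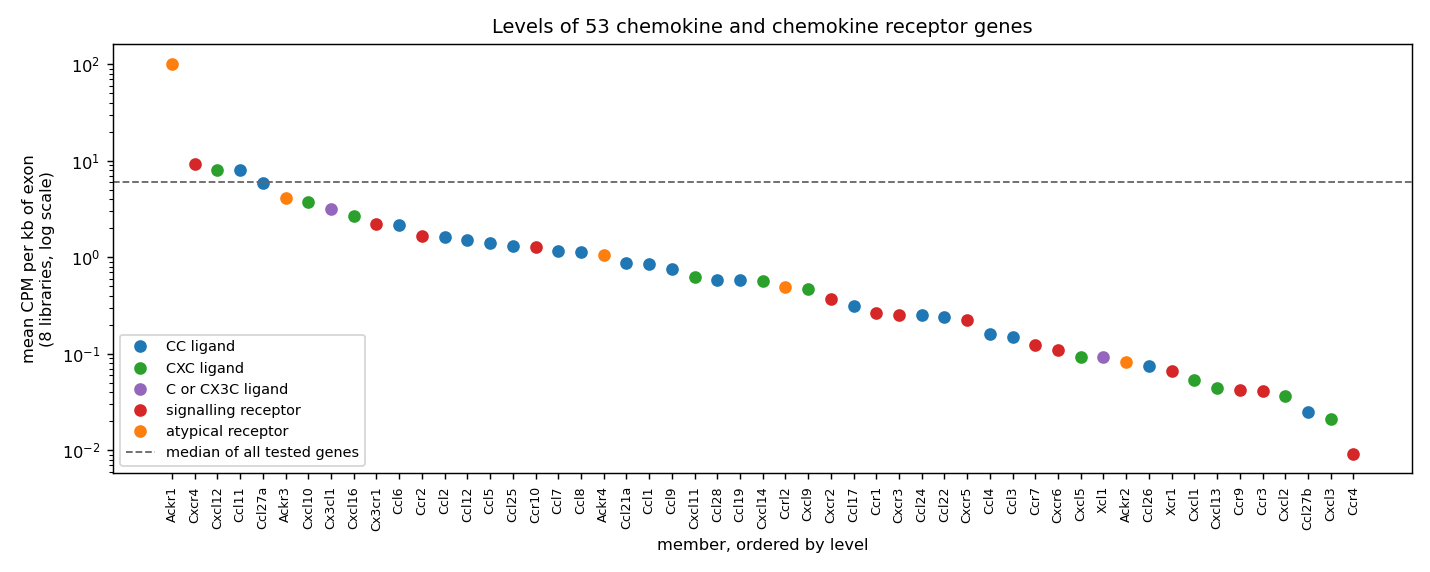
Mean level of 53 members over the 8 libraries, in CPM per kilobase of exon on a log scale, ordered by level and coloured by role, with the median of all tested genes (6.10 CPM per kb) as a dashed line. Ackr1 stands apart at 102 CPM per kb, and 4 members lie above the line.

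With edgeR's quasi-likelihood test and a Benjamini-Hochberg adjusted p under 0.05, the criterion for a call throughout, 1 of the 47 tested members was called at 3d against 0d, where 0.219% of all tested genes were. That member was Cx3cr1, which was lower at 3d. No member was called at 1d (background 0.346%) or at 30d (background 0.0231%) against 0d, nor at 30d against 3d (background 0.935%). At 3d against 1d 1 member was called (background 0.289%), and the F-test over the 4 time points gave 1 (background 1.02%), in both cases Cx3cr1 again. With DESeq2 the counts for 1d, 3d and 30d against 0d were 1, 2 and 1, where 0.635%, 0.629% and 1.06% of all tested genes were called. With limma-voom they were 0, 1 and 0 (backgrounds 0.283%, 0.144% and 0.0115%). By an unadjusted p under 0.05 from edgeR, 6 members differed from 0d at 1d (background 4.47%), 7 at 3d (background 5.94%) and 8 at 30d (background 12.3%). The 7 at 3d were Cx3cr1, Cxcr4, Ccl7, Ccl2, Ccl6, Ccr1 and Cxcr2, of which the first 3 were lower and the others higher, and the 8 at 30d were Cx3cr1, which was lower, and Cxcl5, Cxcl16, Ccl6, Ccl21a, Ccr1, Ccr2 and Cxcr2, which were higher.

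Cx3cr1 (mm10 chr9:120048683-120068296, minus strand) measured 10.8 and 10.9 CPM (0d), 8.13 and 9.92 (1d), 5.64 and 5.06 (3d), and 8.37 and 7.41 (30d). Both 3d libraries lay below every other library, and both 0d libraries lay above every other. From 0d to 3d Cx3cr1 fell by 50.7%, a log2 fold change of -1.02 (standard error, SE, 0.14, adjusted p = 0.00794 by edgeR's quasi-likelihood test with Benjamini-Hochberg adjustment). It was 1 of the 5 genes of the table called lower at 3d than at 0d (background 0.0289%). At 1d its log2 fold change from 0d was -0.27 (SE 0.14) and at 30d -0.46 (SE 0.14), neither past the threshold (adjusted p = 1.00 and 0.229 by edgeR), although the libraries did not overlap with those of 0d in either case. With each library left out the 1d value ran from -0.42 to -0.13. Between 1d and 3d Cx3cr1 fell, with a log2 fold change of -0.75 (SE 0.15, adjusted p = 0.0476 by edgeR). Between 3d and 30d its value was 0.56 (SE 0.15, adjusted p = 0.0981 by edgeR), short of the threshold. That rise passed under 2 of 19 alternatives, DESeq2 and no filter on low counts (backgrounds 2.18% and 1.74%). The 3d call was lost without 3d replicate 1 (log2 fold change -1.10, adjusted p = 0.143 by edgeR) and without 3d replicate 2 (-0.94, adjusted p = 0.266 by edgeR), each of which leaves 1 library at 3d. The call between 3d and 1d passed under 9 of 19 alternatives. It was lost under upper quartile scaling, without robust estimation, with limma-voom and with edgeR's newer dispersion method, and also without any 1 of the 0d, 1d or 3d libraries, where the log2 fold change was -0.89 to -0.60.

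No comparison of the ligand passed the threshold. Cx3cl1 (mm10 chr8:94772180-94782426, plus strand) measured 10.2 and 9.65 CPM (0d), 8.72 and 11.1 (1d), 9.71 and 9.70 (3d), and 10.8 and 9.60 (30d). All 4 time points overlapped, and the log2 fold changes from 0d were 0.0013 at 1d, -0.03 at 3d (95% interval -0.32 to 0.26) and 0.04 at 30d. On the length-corrected scale the ligand stood at a ratio to the receptor of 1.12 and 1.06 (0d), 1.28 and 1.34 (1d), 2.05 and 2.29 (3d), and 1.55 and 1.55 (30d). Ligand and receptor were thus close to equal per kilobase at 0d, whereas the ligand exceeded the receptor by more than 2-fold in both 3d libraries. The difference between the changes of the 2 genes was not tested.

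The 10 macrophage markers (Cd68, Csf1r, Aif1, Adgre1, C1qa, C1qb, C1qc, Mrc1, Cd163 and Lyz2) summed to 172 and 158 CPM (0d), 178 and 179 (1d), 177 and 182 (3d), and 197 and 174 (30d). None of them was called in any of the 5 comparisons by edgeR, while 3, 1 and 2 had an unadjusted p under 0.05 at 1d, 3d and 30d against 0d (backgrounds 4.47%, 5.94% and 12.3%). The 1 at 3d was Cd163, a scavenger receptor of resident macrophages, at a log2 fold change of 1.05 (adjusted p = 0.310 by edgeR). Csf1r, the receptor on which macrophages depend for survival, was at -0.01 (SE 0.10), the complement gene C1qa at 0.05 (SE 0.09) and Adgre1 at -0.18 (SE 0.18). Per 100 CPM of the marker sum, Cx3cr1 was at 6.29 and 6.88 (0d), 4.58 and 5.55 (1d), 3.18 and 2.78 (3d), and 4.25 and 4.27 (30d), so that the order of the time points was the same as in CPM. In RNA of whole tissue, fewer cells of a type and less RNA per cell cannot be told apart.

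**Figure D2:**
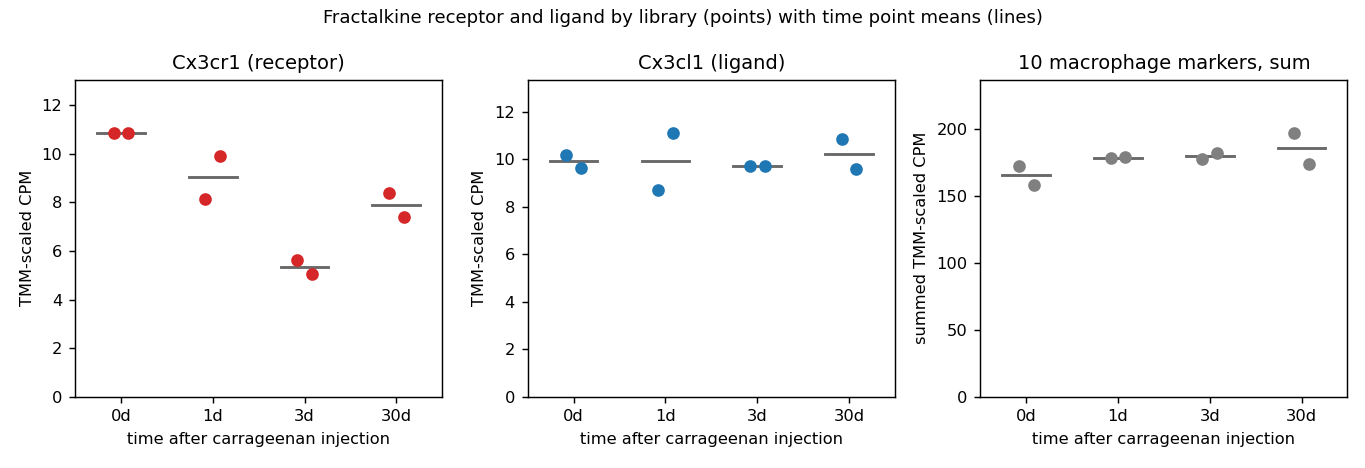
TMM-scaled CPM of Cx3cr1, of its ligand Cx3cl1 and of the sum of 10 macrophage markers, against the time after carrageenan injection, with 1 point per library and a line at each time point mean. Cx3cr1 is at 5.64 and 5.06 CPM in the 3d libraries against 10.8 and 10.9 at 0d, while the ligand overlaps between all time points and the marker sum stays between 158 and 197 CPM.

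The promoters of this pair and of Cxcl10 and Cxcl9, the CXC ligands with the largest log2 fold changes at 1d, are shown so that the sequences in front of these genes can be compared. RefSeq windows of 300 bases (250 before the start site and 50 from it) on GRCm38.p6, the build called mm10, were found for 40 of the 54 members. The windows span chr9:120068247-120068546 (minus strand), chr8:94771930-94772229 (plus strand), chr5:92348840-92349139 (minus strand) and chr5:92328030-92328329 (minus strand), and capitals mark matches to any of 3 motifs searched on both strands. The motifs were an interferon response element (GAAA, any 2 bases, GAAA), a kappaB element (GGG, any 3 bases, TTCC) and a PU.1 element (GAGGAAGT), all chosen with results of these data known.
Cx3cr1: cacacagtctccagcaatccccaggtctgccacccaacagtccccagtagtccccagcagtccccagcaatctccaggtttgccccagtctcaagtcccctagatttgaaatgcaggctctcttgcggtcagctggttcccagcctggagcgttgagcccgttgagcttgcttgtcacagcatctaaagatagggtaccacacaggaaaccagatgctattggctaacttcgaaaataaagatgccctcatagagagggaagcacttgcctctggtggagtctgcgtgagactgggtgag
Cx3cl1: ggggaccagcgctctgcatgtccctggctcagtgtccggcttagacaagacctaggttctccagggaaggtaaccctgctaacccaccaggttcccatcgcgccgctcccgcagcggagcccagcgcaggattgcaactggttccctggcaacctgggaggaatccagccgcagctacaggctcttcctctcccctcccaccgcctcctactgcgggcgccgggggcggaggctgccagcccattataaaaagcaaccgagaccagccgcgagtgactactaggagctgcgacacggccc
Cxcl10: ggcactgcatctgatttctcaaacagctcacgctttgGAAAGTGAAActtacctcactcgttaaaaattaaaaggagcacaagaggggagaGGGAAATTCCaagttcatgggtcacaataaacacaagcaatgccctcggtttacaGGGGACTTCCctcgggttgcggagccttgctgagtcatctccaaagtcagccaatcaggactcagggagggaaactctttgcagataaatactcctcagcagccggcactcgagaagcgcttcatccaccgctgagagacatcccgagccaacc
Cxcl9: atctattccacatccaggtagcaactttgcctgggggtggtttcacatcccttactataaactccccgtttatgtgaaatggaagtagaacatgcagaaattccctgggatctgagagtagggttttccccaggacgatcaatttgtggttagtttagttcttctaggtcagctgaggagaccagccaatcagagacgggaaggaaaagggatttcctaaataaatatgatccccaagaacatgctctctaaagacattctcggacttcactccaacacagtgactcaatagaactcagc
The Cxcl10 window holds an interferon response match at positions -213 to -204 from the start site and kappaB matches at -159 to -150 and at -104 to -95, none of which overlap. The windows of Cx3cr1, Cx3cl1 and Cxcl9 hold no match to these letters. Among all 32851 RefSeq mouse promoters, 3.44% hold the interferon response letters, 5.56% the kappaB letters and 3.20% the PU.1 letters. Of the 40 members with a window, 3 hold the first (Ccl19, Cxcl10 and Cxcl14), 7 the second (Ccl1, Ccl9, Ccr3, Cxcl1, Cxcl2, Cxcl3 and Cxcl10, in 4 of which, Ccl1, Cxcl1, Cxcl2 and Cxcl3, matches on opposite strands overlap) and 1 the third (Cxcr3).

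A positive log2 fold change from 0d was found at 1d for 34 of the 47 tested members (background 48.8%), with a median of 0.17 against -0.0032 over all tested genes. At 3d 23 of the 47 were positive (background 49.2%) and at 30d 30 (background 49.9%). At 1d, the 6 members with an unadjusted p under 0.05 were all ligands and all higher (background 2.35%), namely Cxcl10, Cxcl9, Cxcl12, Ccl8, Ccl12 and Ccl6, and none of them was called. The libraries of 0d and 1d did not overlap for 18 members, a share of 38.3% that is near the background of 31.9%. At 3d 17 members did not overlap with 0d, or 36.2% (background 39.5%), and at 30d 17, again 36.2% (background 39.6%).

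**Figure D3:**
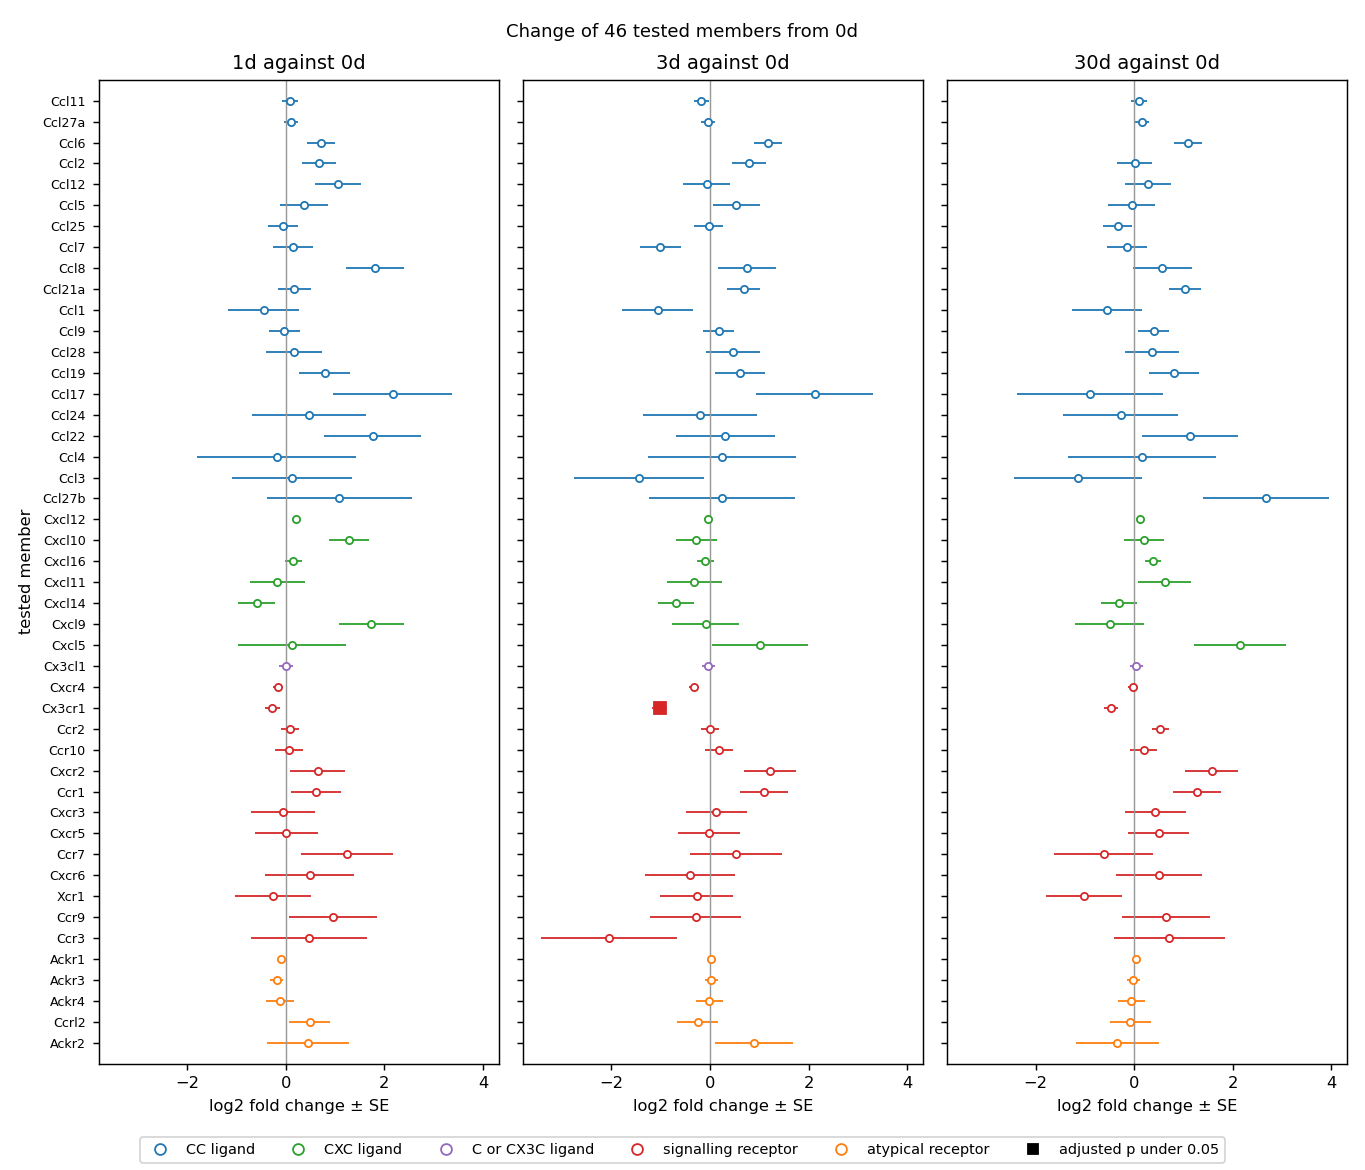
Log2 fold changes of 46 tested members at 1d, 3d and 30d against 0d, with bars of 1 SE from edgeR's quasi-likelihood fit, grouped and coloured by role and ordered by level within each role. Cx3cr1 at 3d, drawn as a filled square at -1.02, is the 1 called value, and bars widen towards the weakly expressed members at the foot of each group.

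Cxcl9, Cxcl10 and Cxcl11 are neighbouring genes of chromosome 5. Cxcl9 and Cxcl10 encode interferon-inducible ligands of Cxcr3, a receptor of activated T and natural killer cells. Cxcl10 (mm10 chr5:92346639-92348889) measured 3.78 and 2.31 CPM (0d), 9.62 and 5.11 (1d), 2.59 and 2.41 (3d), and 4.63 and 2.37 (30d). Both 1d libraries were above all others, but they differed from each other by more than the lower of them differed from either 0d library. Its log2 fold change was 1.28 at 1d against 0d (SE 0.41, adjusted p = 0.798 by edgeR) and -1.56 at 3d against 1d (SE 0.41, adjusted p = 0.514 by edgeR), so neither was past the threshold. Without 1d replicate 1 the former was 0.75 and without 0d replicate 1 1.67, while the latter ran from -1.94 to -1.03 with each library left out. DESeq2 called both, with adjusted p = 0.0312 and 0.00144. Cxcl9 (mm10 chr5:92321331-92328079) measured 1.08 and 0.734 CPM (0d), 4.77 and 1.25 (1d), 0.797 and 0.903 (3d), and 0.994 and 0.300 (30d). Here 1d replicate 1 stood far above all other libraries, while replicate 2 was only slightly above 0d. The log2 fold change at 1d was 1.74 (SE 0.67, adjusted p = 0.988 by edgeR), and it was 0.47 without 1d replicate 1 and 2.40 without 1d replicate 2. Cxcl11 ranged from 0.456 to 1.90 CPM, with overlapping libraries at 0d and 1d and a log2 fold change of -0.17 (SE 0.56). Cxcr3, the receptor of Cxcl9 and Cxcl10, measured 0.435 and 0.310 CPM (0d), 0.280 and 0.433 (1d), 0.460 and 0.356 (3d), and 0.590 and 0.414 (30d). Its time points overlapped throughout, with log2 fold changes from 0d of -0.06, 0.13 and 0.43 and SEs of 0.62 to 0.65. The 7 T cell markers summed to 2.90 to 4.67 CPM and the 5 natural killer cell markers to 0.356 to 1.64 CPM, and no gene of either list was called by edgeR or had an unadjusted p under 0.05.

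The list of 20 interferon-stimulated genes summed to 341 and 338 CPM (0d), 754 and 647 (1d), 424 and 426 (3d), and 334 and 314 (30d). Of these genes, 16 were called higher at 1d than at 0d (median log2 fold change 1.32, background 0.329%), 2 at 3d (background 0.190%) and none at 30d, and 14 were called lower at 3d than at 1d (background 0.265%). Per 100 CPM of this sum, Cxcl10 was at 1.11 and 0.685 (0d), 1.28 and 0.790 (1d), 0.611 and 0.565 (3d), and 1.39 and 0.756 (30d). On that scale the 1d libraries overlapped with those of 0d, and 30d replicate 1 was the highest. Of 15 NF-kB target and inflammatory cytokine genes 14 were tested and none was called in any of the 5 comparisons by edgeR. At an unadjusted p under 0.05, 2 of those 14 were higher than 0d at 1d (background 2.35%). At 3d 1 passed in each direction (backgrounds 3.51% higher and 2.44% lower), and 30d gave 2 in each (backgrounds 6.23% and 6.02%).

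**Figure D4:**
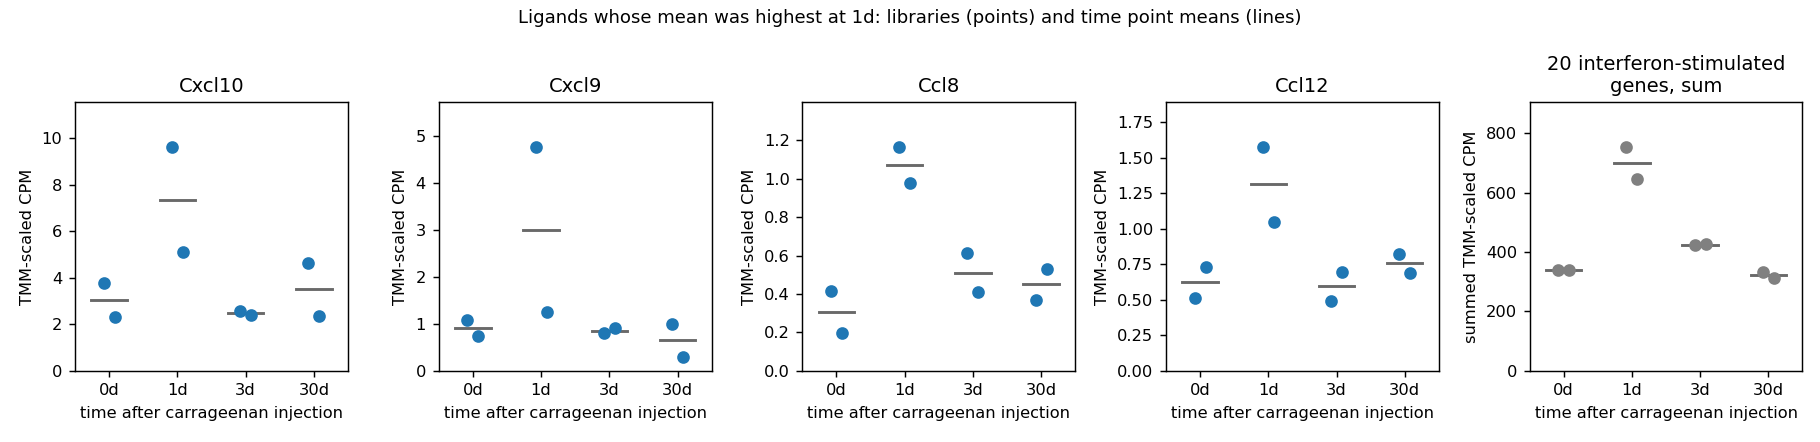
TMM-scaled CPM of Cxcl10, Cxcl9, Ccl8 and Ccl12 and of the sum of 20 interferon-stimulated genes against the time after carrageenan injection, with 1 point per library and a line at each time point mean. In each panel both 1d libraries lie above all others, and for Cxcl9 the 1d libraries are far apart, at 4.77 and 1.25 CPM.

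Cxcl12, a constitutive chemokine that retains leukocytes and guides growing axons, was the most strongly counted ligand. It measured 53.5 and 55.6 CPM (0d), 67.5 and 58.7 (1d), 52.0 and 53.9 (3d), and 64.6 and 53.9 (30d). Its 1d libraries were above those of 0d and 3d, with 30d replicate 1 between them, at a log2 fold change of 0.21 from 0d (SE 0.09, adjusted p = 1.00 by edgeR) that ran from 0.11 to 0.31 with each library left out. Its signalling receptor Cxcr4 measured 19.1 and 17.4 CPM (0d), 16.9 and 15.7 (1d), 14.8 and 14.4 (3d), and 18.4 and 17.2 (30d). The 3d libraries were the lowest, and they did not overlap with any other time point. Against 0d Cxcr4 was at a log2 fold change of -0.32 at 3d (SE 0.10, adjusted p = 0.434 by edgeR) and -0.03 at 30d (SE 0.10). Ackr3, the atypical receptor that scavenges Cxcl12, measured 10.1 and 9.75 CPM (0d), 8.50 and 8.98 (1d), 10.4 and 9.75 (3d), and 10.7 and 8.77 (30d). Its 3d and 30d libraries overlapped with those of 0d, and its log2 fold changes from 0d lay between -0.18 at 1d and 0.02 at 3d. Per kilobase, Cxcl12 stood at a ratio to Cxcr4 of 0.711 and 0.811 (0d), 1.01 and 0.946 (1d), 0.890 and 0.945 (3d), and 0.889 and 0.793 (30d). The ratio was lowest in the 0d libraries and 30d replicate 2.

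The neutrophil-attracting ligands of Cxcr2 were at the lower limit of detection. Cxcl1 was found at 2 and 4 counts (0d), 1 and 6 (1d), 2 and 0 (3d), and 7 and 0 (30d), and Cxcl2 at 2 and 0 counts (0d), 0 and 0 (1d), 4 and 4 (3d), and 9 and 1 (30d). With 22 and 20 counts in all, neither was tested, and no fold is given. Cxcl5, made by epithelial and other structural cells, measured 0.0945 and 0.0489 CPM (0d), 0.0647 and 0.0912 (1d), 0.169 and 0.123 (3d), and 0.253 and 0.386 (30d). Both of its 30d libraries were above all others, at a log2 fold change from 0d of 2.15 (SE 0.94, adjusted p = 0.378 by edgeR) on 77 counts in all. Cxcl3, also of this group, held 11 counts, in 2 libraries. Cxcl13, which draws B cells through Cxcr5, was found at 0 and 4 counts (0d), 7 and 0 (1d), 0 and 4 (3d), and 4 and 5 (30d). It too was untested, and Cxcr5 ranged from 0.296 to 1.03 CPM with overlapping libraries at every time point.

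Cxcl14, a chemokine of epithelia and nerve tissue, and Cxcl16, a transmembrane ligand of Cxcr6, were not called in any comparison by edgeR. Cxcl14 measured 1.46 and 1.21 CPM (0d), 0.928 and 0.844 (1d), 0.889 and 0.766 (3d), and 1.08 and 1.07 (30d). All libraries after injection were below both 0d libraries, with log2 fold changes of -0.58, -0.68 and -0.31 at 1d, 3d and 30d (SEs 0.36 to 0.37, adjusted p = 0.898 by edgeR at 3d). Cxcl16 measured 6.86 and 5.20 CPM (0d), 7.38 and 6.00 (1d), 5.60 and 5.70 (3d), and 7.73 and 7.95 (30d). The 30d libraries were the highest, at a log2 fold change of 0.38 from 0d (SE 0.17, adjusted p = 0.380 by edgeR) and 0.47 from 3d (adjusted p = 0.240 by edgeR). The former was 0.19 without 0d replicate 2 and 0.59 without 0d replicate 1. Because read pairs over overlapping genes were counted for each, and 14.8% of its exon bases overlap Zmynd15, part of its counts may belong to that gene. Cxcr6 measured 0.170 and 0.196 CPM (0d), 0.0863 and 0.433 (1d), 0.138 and 0.137 (3d), and 0.219 and 0.300 (30d), from 97 counts in all. Its largest value was in 1d replicate 2, next to the smallest in 1d replicate 1, and its SEs were 0.88 to 0.91 on the log2 scale.

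The monocyte-attracting CC ligands are neighbouring genes on chromosome 11, where 14 of the 54 members lie, and edgeR called none of them. Ccl2 (mm10 chr11:82035577-82037452), the main ligand of Ccr2, measured 0.813 and 1.12 CPM (0d), 1.42 and 1.69 (1d), 1.66 and 1.72 (3d), and 0.792 and 1.16 (30d). The 1d and 3d libraries were all above those of 0d and 30d, at a log2 fold change of 0.68 at 1d and 0.80 at 3d (SE 0.35, adjusted p = 0.764 by edgeR). Its neighbour Ccl7 (mm10 chr11:82045712-82047523) measured 0.983 and 1.12 CPM (0d), 1.12 and 1.21 (1d), 0.445 and 0.602 (3d), and 0.859 and 1.04 (30d). Both 3d libraries were the lowest, at -1.01 from 0d (SE 0.41, adjusted p = 0.733 by edgeR). The difference between the 2 genes was not tested. Ccl12, a further Ccr2 ligand, measured 0.510 and 0.734 CPM (0d), 1.58 and 1.05 (1d), 0.491 and 0.698 (3d), and 0.825 and 0.685 (30d). Its 1d libraries were the highest, at a log2 fold change of 1.07 (SE 0.47, adjusted p = 1.00 by edgeR). Ccl8 measured 0.416 and 0.196 CPM (0d), 1.17 and 0.980 (1d), 0.613 and 0.410 (3d), and 0.371 and 0.528 (30d), again highest at 1d, where its log2 fold change was 1.82 (SE 0.59, adjusted p = 0.625 by edgeR). Without 0d replicate 1 it was 2.45, and without 0d replicate 2 1.36.

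Ccl6, a CC ligand of macrophages and other myeloid cells that binds Ccr1, was at higher values at every time point after injection. It measured 2.15 and 1.40 CPM (0d), 2.96 and 2.87 (1d), 3.66 and 4.34 (3d), and 4.72 and 2.84 (30d). All 6 libraries after injection were above both 0d libraries. Its log2 fold changes from 0d were 0.72 at 1d, 1.18 at 3d and 1.09 at 30d (SE 0.28 at 3d, adjusted p = 0.940, 0.152 and 0.150 by edgeR). DESeq2 called the latter 2 (adjusted p = 0.0290 and 0.0453). In edgeR the 3d value was called without 30d replicate 1 or 30d replicate 2 (adjusted p = 0.0226 and 0.0194), and the 30d value without 30d replicate 2 (log2 fold change 1.41, adjusted p = 0.0146). The 30d value was 1.41 without 30d replicate 2 and 0.68 without 30d replicate 1, each with 1 library left at 30d. Without 0d replicate 2 the 1d value was 0.44. Ccl9, its close relative and neighbour, ranged from 1.52 to 3.17 CPM with libraries that overlapped 0d at each time point.

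The T cell and macrophage attractants Ccl3, Ccl4 and Ccl5 were sparse. Ccl5 measured 0.662 and 0.620 CPM (0d), 1.01 and 0.638 (1d), 0.828 and 1.03 (3d), and 0.488 and 0.743 (30d). Its 3d libraries were above those of 0d, at a log2 fold change of 0.53 (SE 0.47, adjusted p = 0.999 by edgeR). Ccl3 was found at 14 and 4 counts (0d), 8 and 8 (1d), 6 and 2 (3d), and 9 and 0 (30d), and Ccl4 at 0 and 12 counts (0d), 2 and 6 (1d), 16 and 0 (3d), and 3 and 12 (30d). With 51 counts each, SEs at 1d against 0d were 1.22 and 1.61 on the log2 scale.

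Ccl19 and Ccl21a guide dendritic cells and T cells through Ccr7. Ccl19 measured 0.832 and 0.293 CPM (0d), 0.928 and 1.00 (1d), 0.966 and 0.739 (3d), and 0.893 and 1.06 (30d). Apart from 0d replicate 2, its libraries lay close together. Ccl21a measured 0.756 and 1.35 CPM (0d), 1.12 and 1.28 (1d), 1.61 and 1.79 (3d), and 2.24 and 2.11 (30d). It was highest at 30d, without overlap with any other time point, at a log2 fold change from 0d of 1.04 (SE 0.33, adjusted p = 0.237 by edgeR) that ran from 0.69 to 1.52 with each library left out. Their counts are uncertain, since 59.1% and 71.6% of the 50-base words of their transcripts occur in transcripts of other genes. Of the 1736 exon bases of Ccl21a, overlap with other genes was checked for 868, all of which overlap Gm1987. Ccr7 measured 0.246 and 0.114 CPM (0d), 0.690 and 0.160 (1d), 0.399 and 0.123 (3d), and 0.101 and 0.129 (30d). At 1d and at 3d replicate 1 was well above replicate 2, and the log2 fold change at 1d was 1.25 (SE 0.93). Ccl27a, a skin chemokine, measured 8.03 and 8.48 CPM (0d), 9.95 and 7.84 (1d), 7.57 and 8.48 (3d), and 9.43 and 9.08 (30d), with log2 fold changes from 0d of -0.04 to 0.16. This gene shares 69.2% of its words with others, and Ccl27b 98.1%. Ccl25, which draws thymocytes and gut lymphocytes through Ccr9, measured 2.08 and 1.52 CPM (0d), 1.90 and 1.57 (1d), 1.96 and 1.56 (3d), and 1.52 and 1.33 (30d). To 3 digits 30d replicate 1 equalled 0d replicate 2, and the 30d value was at -0.34 (SE 0.30). Xcl1, a lymphocyte chemokine, was found at 1 and 4 counts (0d), 3 and 4 (1d), 0 and 2 (3d), and 6 and 0 (30d). Its receptor Xcr1, of cross-presenting dendritic cells, measured 0.435 and 0.310 CPM (0d), 0.324 and 0.296 (1d), 0.230 and 0.383 (3d), and 0.270 and 0.100 (30d), from 136 counts, and its log2 fold change was -1.02 at 30d (SE 0.78).

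The other CC ligands were Ccl1, Ccl11, Ccl17, Ccl22, Ccl24, Ccl26, Ccl27b and Ccl28, for which no value passed the threshold with all 8 libraries. Ccl28, a mucosal chemokine, measured 1.72 and 1.92 CPM (0d), 2.33 and 1.76 (1d), 2.50 and 2.57 (3d), and 0.893 and 3.77 (30d), so that its 30d libraries lay on either side of all others. Without 30d replicate 2 it was called lower at 30d than at 3d, at 35.2% of the 3d level (adjusted p = 0.0477 by edgeR, with 1 library left at 30d), against a log2 fold change of -0.11 with all 8. The log2 fold changes of these ligands from 0d, Ccl26 being untested, ran from -1.06 (Ccl1 at 3d, SE 0.72) to 2.67 (Ccl27b at 30d, SE 1.28). Ccl17, a ligand of Ccr4, was at -3.01 at 30d against 3d (SE 1.27, adjusted p = 0.331 by edgeR) on 73 counts in all. Its counts were 23 and 14 in the 3d libraries and 4 and 0 in those of 30d, and without 30d replicate 2 the value was -1.97. Without 30d replicate 1 the 1 library left at 30d holds no count, so no fold is given.

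Of the receptors of inflammatory leukocytes, none was called. Ccr1, of neutrophils and monocytes, measured 0.340 and 0.505 CPM (0d), 0.777 and 0.524 (1d), 0.966 and 0.862 (3d), and 1.25 and 0.814 (30d). All 6 libraries after injection were above both of 0d. The log2 fold change was 1.10 at 3d and 1.27 at 30d (SE 0.49 each, adjusted p = 0.786 and 0.318 by edgeR). Cxcr2, the neutrophil receptor of Cxcl1, Cxcl2 and Cxcl5, measured 0.340 and 0.799 CPM (0d), 0.647 and 1.16 (1d), 1.09 and 1.59 (3d), and 2.48 and 0.957 (30d). The 3d and 30d libraries were above both of 0d, with 30d replicate 1 the highest. Its log2 fold change was 1.22 at 3d (SE 0.53, adjusted p = 0.786 by edgeR) and 1.57 at 30d (SE 0.53, adjusted p = 0.263 by edgeR). The 3d value was 0.75 without 0d replicate 1 and 1.97 without 0d replicate 2. Without 30d replicate 1 the 30d value was 0.73, and without 30d replicate 2 the level at 30d was 4.28-fold that at 0d. Each of these 2 fits leaves 1 library at 30d.

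Beside these values stand those of 7 neutrophil markers (S100a8, S100a9, Csf3r, Mmp9, Ngp, Camp and Retnlg), which summed to 45.5 and 91.1 CPM (0d), 97.4 and 108 (1d), 135 and 139 (3d), and 209 and 94.6 (30d). All 7 had a positive log2 fold change at 1d, 3d and 30d, with medians of 0.48, 1.00 and 1.08, none was at 0 in all libraries, and none was called by edgeR, with 0, 1 and 3 at an unadjusted p under 0.05 (backgrounds 4.47%, 5.94% and 12.3%). Per 100 CPM of that sum, Cxcr2 was at 0.748 and 0.877 (0d), 0.665 and 1.08 (1d), 0.804 and 1.14 (3d), and 1.18 and 1.01 (30d), and Ccr1 at 0.748 and 0.555 (0d), 0.798 and 0.488 (1d), 0.714 and 0.620 (3d), and 0.596 and 0.860 (30d). On this scale the 0d libraries overlapped with those of every later time point for Ccr1, and with those of 1d and 3d for Cxcr2. Ccl6 was at 4.73 and 1.54 (0d), 3.04 and 2.67 (1d), 2.71 and 3.12 (3d), and 2.25 and 3.00 (30d) per 100 CPM of the neutrophil sum, where all later libraries lay between the 0d libraries. Per 100 CPM of the macrophage sum it was at 1.25 and 0.887 (0d), 1.66 and 1.61 (1d), 2.07 and 2.38 (3d), and 2.39 and 1.64 (30d), and all later libraries lay above both of 0d. The part of neutrophil RNA in the values of Ccr1, Cxcr2 and Ccl6 was not tested.

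**Figure D5:**
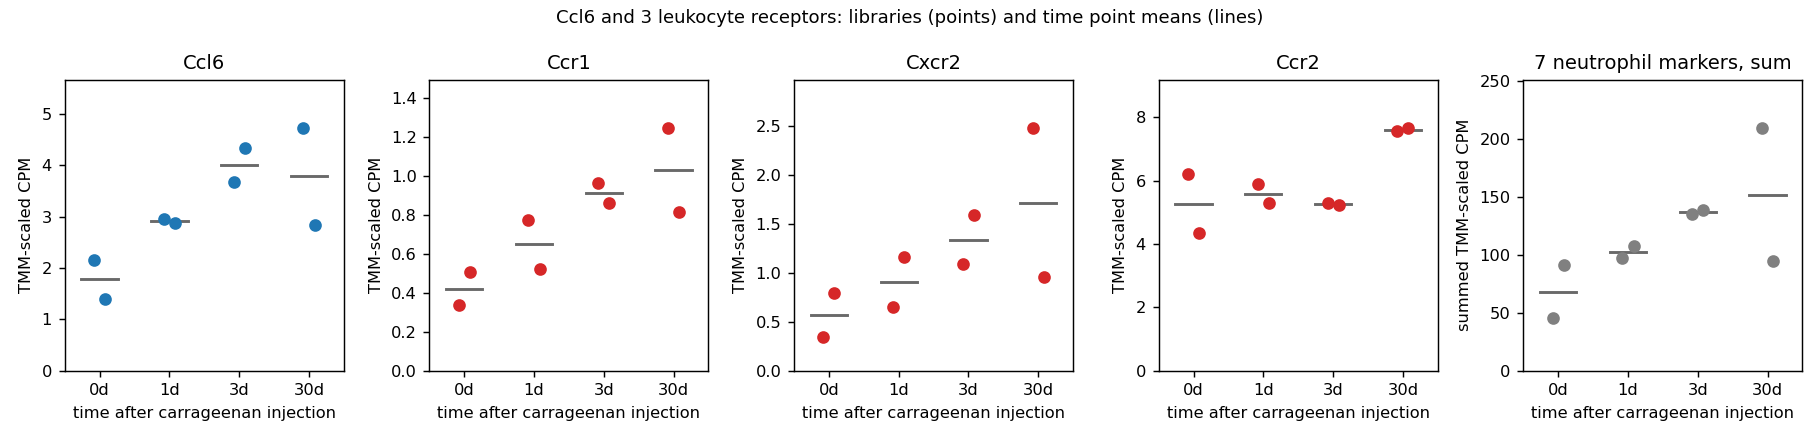
TMM-scaled CPM of Ccl6, of the leukocyte receptors Ccr1, Cxcr2 and Ccr2 and of the sum of 7 neutrophil markers against the time after carrageenan injection, with 1 point per library and a line at each time point mean. For Ccl6, Ccr1, Cxcr2 and the marker sum the same 30d library, replicate 1, is the highest of all 8, whereas Ccr2 is at 7.56 and 7.65 CPM in both 30d libraries.

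Ccr2, the receptor of inflammatory monocytes, measured 6.22 and 4.34 CPM (0d), 5.89 and 5.29 (1d), 5.31 and 5.24 (3d), and 7.56 and 7.65 (30d). The 30d libraries lay close together and above all others, at a log2 fold change of 0.53 from 0d and 0.53 from 3d (SE 0.18 each, adjusted p = 0.255 and 0.204 by edgeR). Without 0d replicate 2 the former was 0.29, and without 0d replicate 1 0.81. Of the 50-base words of its transcripts, 2.27% occur in other transcripts. Per kilobase, Ccl2 stood at a ratio to Ccr2 of 0.582 and 1.16 (0d), 1.08 and 1.42 (1d), 1.39 and 1.46 (3d), and 0.466 and 0.673 (30d). The ratio was highest at 3d and in 1d replicate 2, and lowest in 0d replicate 1 and 30d replicate 1. Of the other receptors, Ccr3, Ccr9, Ccr10 and Cxcr5 were tested and not called, with log2 fold changes from 0d between -2.04 (Ccr3 at 3d, SE 1.38) and 0.96 (Ccr9 at 1d, SE 0.90), and Ccr4 held 13 counts.

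None of the 5 atypical receptors was called in any comparison by edgeR, nor had any an unadjusted p under 0.05. Ackr1 (mm10 chr1:173331886-173333503), of whose 50-base words 6.07% occur in Cadm3, measured 122 and 115 CPM (0d), 117 and 106 (1d), 119 and 122 (3d), and 126 and 119 (30d). Its log2 fold changes from 0d were -0.09, 0.02 and 0.04, with a SE of 0.06 and 95% intervals that ran from -0.21 at 1d to 0.16 at 30d. Ackr1 is carried by venular endothelium and by red cell precursors, and the sum of 5 red blood cell genes ranged from 141 to 515 CPM over the same libraries. Ackr4, a scavenger of Ccl19, Ccl21 and Ccl25, measured 2.72 and 1.92 CPM (0d), 1.96 and 2.30 (1d), 2.16 and 2.42 (3d), and 2.64 and 1.81 (30d). The time points overlapped, and the log2 fold changes from 0d were -0.12 to -0.02 (SE 0.28). Ackr2, a scavenger of inflammatory CC chemokines, measured 0.246 and 0.147 CPM (0d), 0.151 and 0.388 (1d), 0.307 and 0.424 (3d), and 0.135 and 0.171 (30d). From 117 counts in all, its log2 fold change at 3d was 0.90 (SE 0.79, adjusted p = 0.999 by edgeR). Ccrl2, which binds chemerin and is induced on activated leukocytes, measured 0.888 and 1.22 CPM (0d), 1.86 and 1.12 (1d), 0.797 and 0.985 (3d), and 1.26 and 0.743 (30d). It was highest in 1d replicate 1, and its log2 fold change at 1d was 0.49 (SE 0.41).

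Downstream of the receptors, 26 genes of chemokine receptor signalling were tested, among them G protein subunits, receptor kinases, arrestins and exchange factors of cell migration. Arrb1 (beta-arrestin 1), which uncouples activated receptors from their G proteins, was called higher at 3d than at 0d, at a log2 fold change of 0.24 (adjusted p = 0.0243 by edgeR), and lower at 30d than at 3d, at -0.25 (adjusted p = 0.00888 by edgeR). It was the only gene of that list called in these 2 comparisons (backgrounds 0.219% and 0.935%). At an unadjusted p under 0.05, 4 of the list were higher and 1 was lower at 3d against 0d (backgrounds 3.51% and 2.44%). At 30d against 3d 1 was higher and 5 were lower (backgrounds 6.04% and 6.97%). The other 3 comparisons gave none by edgeR, with 5 genes at an unadjusted p under 0.05 at 1d against 0d (background 4.47%), 2 at 30d against 0d (background 12.3%) and 1 at 3d against 1d (background 4.24%). Of 9 proteases that shed or trim chemokines, among them Adam10 and Adam17, which release Cx3cl1 from the membrane, 8 were tested. None was called in the 5 comparisons by edgeR, while 3 were lower at an unadjusted p under 0.05 at 1d (background 2.11%), 1 was higher and 2 were lower at 3d, and 2 passed in each direction at 30d. Over all tested genes, 5.94% passed at 3d and 12.3% at 30d, counting both directions.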

How the data were processed

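RNA of pooled dorsal root ganglia was sequenced in 8 libraries, 2 each at 0d, 1d, 3d and 30d. By the submitters' processing notes, the authors used cutadapt 2.10 for trimming, STAR 2.7.5a for alignment to mm10 and featureCounts 2.0.1 for counting read pairs over UCSC exons. Per the file headers, strand was ignored and pairs over several genes were counted for each. The deposited values are raw counts per gene. The members and all gene and motif lists were chosen with earlier results of these data known.

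With R 4.3.3 and edgeR 4.0.16, genes were filtered by filterByExpr and scaled by TMM, and the 8 libraries were fitted together, with time point as the only term (glmQLFit, robust). The 5 contrasts and an F-test over all time points used quasi-likelihood F-tests with Benjamini-Hochberg adjustment over 17328 genes. Standard errors are the log2 fold change over the square root of F. P-values measure the spread between pools, whose common biological coefficient of variation was 8.85%. The fits were tested on simulated data.

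Values in every library are given for members called in any comparison, for those with an unadjusted p under 0.05 against 0d, and for a list of main ligands and receptors. The values of 1 member are not reported here, although it is included in the counts of members. Ccl17, Ccl28 and Cxcl11 were named after their values were seen. Alternatives were RLE, upper quartile and no scaling, no filter and a filter of 1 CPM in 2 libraries, no robust estimation, DESeq2 1.42.0, limma-voom (limma 3.58.1), fits of the compared time points alone, a replicate block, each library left out and, chosen after seeing the data, edgeR's newer dispersion method.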

Additional observations from a re-analysis of the deposited data

How the results depend on the processing

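Over the 5 comparisons, 33 log2 fold changes of tested members had an unadjusted p under 0.05. All of them kept their sign under all alternatives that gave a value, whereas 114 of the other 202 changed sign under at least 1. Because every alternative reuses the same libraries, values chosen by a low p were likely to keep their sign. Cx3cr1 at 3d against 0d passed the threshold under 17 of 19 alternatives, with a log2 fold change of -1.10 to -0.94, and at 3d against 1d under 9 of 19. With the main settings 0, 1 and 0 members were called at 1d, 3d and 30d against 0d, 1 at 3d against 1d, 0 at 30d against 3d and 1 over all time points. DESeq2 gave 1, 2, 1, 2, 1 and 4 in that order, the 4 being Ccl6, Cxcl9, Cxcl10 and Cx3cr1, and called 0.635%, 0.629%, 1.06%, 0.635%, 2.18% and 2.95% of all tested genes. Without the filter on low counts the numbers were 2 at 3d and 1 at 30d against 0d, 1 at 30d against 3d and 2 over all time points, with backgrounds of 0.433%, 0.861%, 1.74% and 2.25%. With the compared time points fitted alone, 2 members were called at 3d against 0d (Ccl6 and Cx3cr1, background 0.715%) and 3 at 3d against 1d (Cxcl10, Cxcl12 and Cx3cr1, background 1.55%). At 3d against 1d, upper quartile scaling, no robust estimation, limma-voom and edgeR's newer dispersion method each gave 0. The causes of these shifts were not tested. With each library left out, the number was 0 to 2 at 3d and 0 to 2 at 30d against 0d, 0 to 1 at 3d against 1d, 0 to 1 at 30d against 3d (Ccl28, without 30d replicate 2) and 0 to 2 over all time points, while the share of all tested genes called ran from 0.00561% to 0.680%, 0.00561% to 1.15%, 0.0281% to 0.663%, 0.0674% to 2.95% and 0.286% to 2.25% in that order. At 30d against 0d members were called only without 30d replicate 2, where that share was highest. The differences between replicates of 2 time points correlated across genes at -0.0144 to 0.0438, which gives no sign that replicate numbers pair the samples. Whether they do so for a subset of genes was not tested. The fit with the replicate block gave 1 at 1d against 0d (Cxcl10, log2 fold change 1.25, edgeR adjusted p = 0.0190, background 0.421%). It gave 2 at 3d against 1d and 2 over all time points, with backgrounds of 0.444% and 1.62%. In the other comparisons the number of members was the same as in the main fit. Over all tested genes, the block fit called more than the main fit in every comparison, as at 30d against 0d with 69 against 4. For the 31 tested members under 1000 counts, the log2 fold changes at 3d had a median standard error of 0.63, against 0.16 for the 16 with more. Counting error and spread between pools were not separated.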
